A study of Mus musculus with 4 samples.

Results

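The Fc gamma receptors of the mouse and their shared signalling subunit were followed across single bone marrow cells that had been read for RNA and for surface antibodies at once. The genes were taken by symbol from the deposited feature lists: Fcgr1, Fcgr2b, Fcgr3, Fcgr4 and Fcer1g, which are 5 of 32285 gene features. Beside them stood the antibody feature CD16/32, 1 of 13 surface antibodies among 15 antibody features, the rest being hashtags. The cells were CD45.2+ Kit+ bone marrow, taken 10 weeks post-transplantation and processed with the 10x Genomics 3' chemistry and feature barcode kits. The groups were a control, a deletion of Mll3, a deletion of Mll4 and a joint Mll3/4 deletion, with 1 library for each of the 4. Kmt2c and Kmt2d are the genes of Mll3 and Mll4, which methylate histone H3. The labels name no Cre driver, allele, inducing agent, donor number or recipient for any group, so what the control cells carry is not known here. Kit is a surface receptor of stem cells, progenitors and mast cells, and CD45.2 is an allele commonly used to tell donor from recipient blood cells.

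Fc gamma receptors bind the constant part of IgG and couple antibodies to phagocytes and other blood cells. In the mouse, FcγRI (Fcgr1), FcγRIII (Fcgr3, CD16) and FcγRIV (Fcgr4) are activating receptors that hold the FcRγ chain (Fcer1g), whose ITAM motif is phosphorylated by Src-family kinases and recruits Syk, while FcγRIIB (Fcgr2b, CD32) carries an inhibitory ITIM motif that recruits phosphatases and is the Fc gamma receptor of B cells. The common CD16/32 antibody binds both FcγRIII and FcγRIIB and is used with CD34 to split Kit-positive, Sca1-negative marrow into common myeloid, granulocyte-macrophage and megakaryocyte-erythroid progenitors.

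With 1 library per group there is no replicate check, and no test was made. Each comparison is between libraries, not between conditions, and every 95% interval covers counting error only. The matrices held 10001, 9491, 6622 and 8284 barcodes in the control, Mll3-, Mll4- and Mll3/4-labelled libraries, of which 7146, 5860, 5350 and 6917 cells were kept. The median kept cell had 15754, 16963.5, 5142 and 9965 gene UMIs in that order, so the Mll4-labelled library was the shallowest. Any pair of libraries shared 3 to 15 kept barcodes. Kmt2c was at 47.9, 27.2, 59.2 and 34.8 counts scaled to a common total of 1000000 (CPM), and Kmt2d at 25.8, 21.6, 25 and 24.7 CPM. Kmt2d thus did not follow the labels. Where the deleted part of each gene lies is not given, so that 3' counts may not check a deletion, and libraries are named here by label. Xist, carried by female cells, was at 0.519 CPM in the Mll4-labelled library and at 955 to 1839 CPM in the others, so that library stood apart in Xist as well as in depth. Clustering without the receptor genes gave 28 clusters, which were named from fixed markers of 13 classes, and "like" names below mean only that. The B-cell progenitor-like class took 98.7% of Mll3/4-labelled cells and 6.59% of control cells. The neutrophil-like class took 50.2% of Mll4-labelled, 24.9% of control and 17.5% of Mll3-labelled cells. Sums over all cells therefore follow the makeup of the library, and fewer cells of a type cannot be told apart from less RNA per cell in them. Free RNA was not removed from any count.

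Of the 5 genes, 4 lie within 275749 bases of chromosome 1 (GRCm38, GENCODE M21). Fcgr2b is at chr1:170958617-170976547 on the minus strand, Fcgr4 at chr1:171018920-171029761 on the plus strand, Fcgr3 at chr1:171051174-171064935 on the minus strand and Fcer1g at chr1:171229572-171234365 on the minus strand. Fcgr1 is at chr3:96282909-96293969 on the minus strand. The gaps between the chromosome 1 genes are 42372, 21412 and 164636 bases. Fcgr2b and Fcgr3 are close relatives, and their transcripts share a run of 129 identical bases. Within the last 300 bases, which 3' reads mostly come from, the longest shared run is 8 bases, so reads there can tell the 2 genes apart. An antisense gene, Gm38204, overlaps Fcgr2b over 3175 bases and had 0 counts in all 4 libraries.

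The 250 bases before the RefSeq start of the 4 chromosome 1 genes (GRCm38.p6) are printed because their transcripts were high in the same myeloid classes. They lie at chr1:170976072-170976321 for Fcgr2b, chr1:171059404-171059653 for Fcgr3, chr1:171018676-171018925 for Fcgr4 and chr1:171234350-171234599 for Fcer1g, each written 5′ to 3′ on the strand of its gene. The RefSeq start is not the 5′ end of the GENCODE span in every case. The windows of Fcgr3 and Fcgr2b lie inside their GENCODE spans, whose 5′ ends are at 171064935 and 170976547. Distances below are from the RefSeq start. Capitals mark TTCCTC, the reverse complement of GAGGAA, which is a core recognised by the myeloid factor PU.1.
Fcgr2b: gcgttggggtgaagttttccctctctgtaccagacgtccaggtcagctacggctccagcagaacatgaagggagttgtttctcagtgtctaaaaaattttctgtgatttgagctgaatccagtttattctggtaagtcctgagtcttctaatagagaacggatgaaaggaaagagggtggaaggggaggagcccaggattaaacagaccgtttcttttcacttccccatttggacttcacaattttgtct
Fcgr3: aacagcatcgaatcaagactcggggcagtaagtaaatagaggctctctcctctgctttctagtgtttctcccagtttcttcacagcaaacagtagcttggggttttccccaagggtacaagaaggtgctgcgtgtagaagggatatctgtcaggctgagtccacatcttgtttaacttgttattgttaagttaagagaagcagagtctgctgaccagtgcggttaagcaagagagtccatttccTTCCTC
Fcgr4: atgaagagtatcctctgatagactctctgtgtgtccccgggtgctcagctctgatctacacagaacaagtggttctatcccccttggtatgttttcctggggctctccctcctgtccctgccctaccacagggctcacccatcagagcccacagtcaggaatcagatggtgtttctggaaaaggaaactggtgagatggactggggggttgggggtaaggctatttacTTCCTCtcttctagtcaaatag
Fcer1g: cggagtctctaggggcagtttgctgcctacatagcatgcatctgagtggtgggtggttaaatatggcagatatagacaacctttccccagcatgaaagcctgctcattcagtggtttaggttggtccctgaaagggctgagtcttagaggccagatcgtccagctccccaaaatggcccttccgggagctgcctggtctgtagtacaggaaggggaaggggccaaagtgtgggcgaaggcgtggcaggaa
GAGGAA, searched on both strands, was found 6 bases before the start of Fcgr3, 22 before that of Fcgr4 and 55 before that of Fcgr1, and at neither Fcgr2b nor Fcer1g. It occurs in 23.1% of all 27025 windows of this length. TTNNGNAA, a loose form of the site of C/EBP factors, was found at 28 and 146 bases before the start of Fcgr3 and at 78 before that of Fcgr4, in 36.9% of all windows. No match says only that these letters are not in the window, and a match is a description of the sequence and not of binding.

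In control, classes were ranked where they held at least 50 cells. Fcgr3, the activating low-affinity receptor, was highest in granulocyte progenitor-like cells at 190.8 CPM. Monocyte/macrophage progenitor-like cells followed at 154 CPM and neutrophil-like cells at 93.4 CPM. Unnamed cluster 10, which was led by Ccl9, Cd34, Cebpa and Cpa3, stood at 39.4 CPM. All other ranked classes lay between 2.42 CPM in erythroid progenitor-like cells and 6.85 CPM in unnamed cluster 14, a Cd34-expressing cluster led by Hist1h2ap. HSC/MPP-like cells, the stem and multipotent progenitor class, had 5.24 CPM and B-cell progenitor-like cells 5.97 CPM. The highest ranked class was 78.7-fold above the lowest. The 28 basophil/mast-like cells of control were not ranked. They had 48 counts of Fcgr3 in 194583 gene UMIs, so they were not among the low classes. The low classes from 5.24 to 6.85 CPM had overlapping intervals and are not ordered beyond counting error.

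Fcer1g, the FcRγ chain, had another order. Among the ranked classes it was highest in neutrophil-like cells at 1114 CPM. Monocyte/macrophage progenitor-like cells had 506, T/NK/innate lymphoid-like cells 492 and granulocyte progenitor-like cells 186 CPM. It reached 121 CPM in cluster 10, 76.0 CPM in cluster 14 and 52.7 CPM in HSC/MPP-like cells, where Fcgr3 was near its lowest values. Basophil/mast-like cells, in which the chain serves the IgE receptor, had 857 CPM in the Mll4-labelled library, the one library with at least 50 of them (173 cells). Erythroid progenitor-like cells were lowest at 7.75 CPM, 144-fold under the neutrophil-like value.

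Fcgr2b, the inhibitory receptor, was at 55.2 CPM in neutrophil-like, 47.6 in granulocyte progenitor-like and 35.8 CPM in monocyte/macrophage progenitor-like cells of control. It was at 20.7 CPM in cluster 10, 14.3 CPM in cluster 14 and 6.60 CPM in B-cell progenitor-like cells. The 144 mature B cell-like cells of the Mll3-labelled library had 47.7 CPM, from 21 counts.

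Fcgr4, an activating receptor of mature phagocytes, was the most restricted of the genes. Neutrophil-like cells had 17.2 CPM and held 88.8% of the counts of Fcgr4 in the control library. Granulocyte progenitor-like and monocyte/macrophage progenitor-like cells had 2.65 and 2.38 CPM, and no count was seen in control HSC/MPP-like, megakaryocyte-like or B-cell progenitor-like cells. Fcgr1, the high-affinity receptor of monocytes and macrophages, was close to the limit of the data, with 19, 12, 8 and 2 counts in the control, Mll3-, Mll4- and Mll3/4-labelled libraries. Its highest class value was 1.43 CPM (5 counts), in the monocyte/macrophage progenitor-like cells of the Mll4-labelled library. All 5 counts lay in cluster 26 of that class (72 cells, 23.8 CPM), with 0 in cluster 12 (523 cells). No ratio is given for it.

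**Figure D1:**
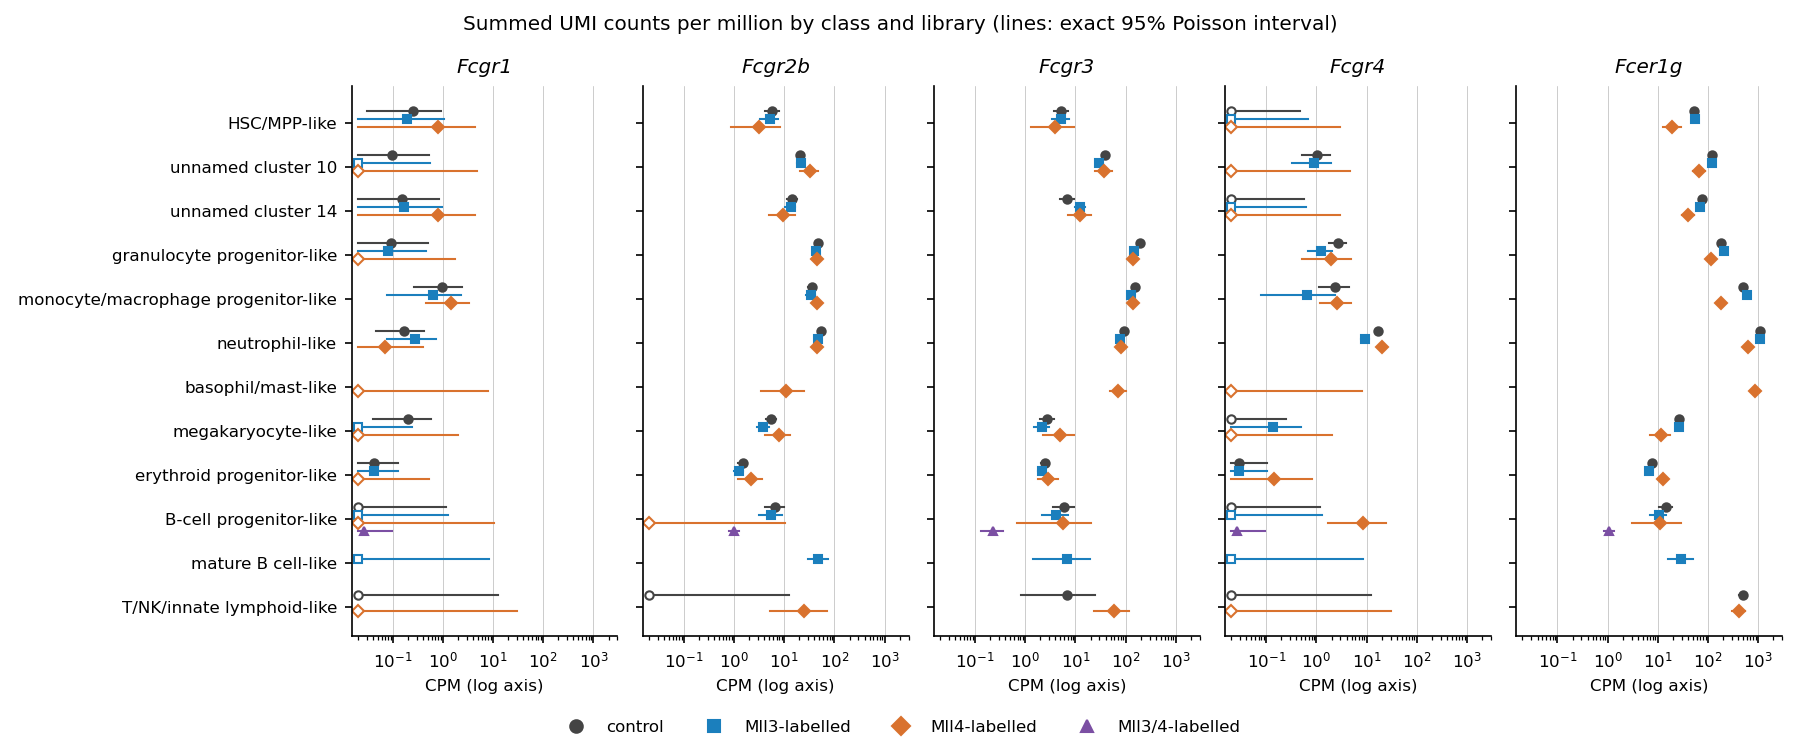
Summed counts as CPM (log axis) of the 5 genes for each class with at least 50 cells, 1 symbol per library, with lines for the exact 95% Poisson interval and open symbols at the left edge for 0 counts. Unnamed cluster 25 (91 Mll3-labelled cells) is left out. In control, Fcgr3 is highest in the granulocyte progenitor-like class, and Fcer1g and Fcgr4 in neutrophil-like cells. The Mll3/4-labelled library appears only among B-cell progenitor-like cells.

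Over 33 points, each a class in 1 library, log2(CPM + 1) of Fcgr3 had a Pearson correlation of 0.84 with Fcer1g and 0.82 with Fcgr2b. These points share libraries and depth, and the values are descriptions with no test. They include unnamed cluster 25 of the Mll3-labelled library (91 cells, median 1307 UMIs). Of 9853 genes that reached 20 CPM in some point, the 5 most like Fcgr3 were Anxa3 (0.93), Clec12a (0.92), Atp8b4 (0.91), Slpi (0.91) and Tyrobp (0.90). The pattern of Fcer1g was closest to Tyrobp (0.95), which encodes DAP12, an ITAM adaptor of the same kind, followed by Myo1f (0.89), Rps6ka1 (0.89), Arhgap9 (0.87) and Ltb4r1 (0.87). Among the genes most like Fcgr2b were Igsf6 (0.90), Naip2 (0.87), Morrbid (0.86) and Anxa3 (0.85), and Fcgr4 was most like Abca13 (0.89), Gpr84 (0.88), B430306N03Rik (0.86), Acpp (0.86) and Cd300lf (0.86). For Fcgr1 the best values were 0.69 for Cxcl9 and 0.66 for Cd209a.

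Over all kept cells, Fcgr3 was at 37.5, 28.5, 62.2 and 1.61 CPM in the control, Mll3-, Mll4- and Mll3/4-labelled libraries. Fcgr2b was at 16.7, 12.7, 29.2 and 1.33 CPM in the same order. Fcer1g was at 224, 166, 316 and 11.1 CPM, and Fcgr4 at 3.03, 1.16, 9.18 and 0.206 CPM. All 4 genes thus had their highest level in the Mll4-labelled library and their lowest in the Mll3/4-labelled one. In log2 ratios to control, Fcgr3 stood at −0.40 (−0.46 to −0.34) in the Mll3-labelled, 0.73 in the Mll4-labelled and −4.54 in the Mll3/4-labelled library. Fcgr4 moved furthest in the single libraries, at −1.38 (−1.65 to −1.12) in the Mll3-labelled and 1.60 (1.39 to 1.81) in the Mll4-labelled one.

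Of the 4 genes with at least 20 counts, 1 (Fcgr4) was at least 2-fold lower in the Mll3-labelled library, where 3.40% of all genes were. Fcgr4 was also the 1 gene at least 2-fold higher in the Mll4-labelled library, against 9.67% of all genes. All 4 were at least 2-fold lower in the Mll3/4-labelled library, against 19.5% of all genes. By hashtag, Fcgr4 in the Mll3-labelled library was at 0.486 and 2.06 CPM beside 3.48 and 2.53 CPM in control, so that both lay lower and Hashtag1 by more. Fcer1g was at 127 and 220 CPM there beside 235 and 212 CPM in control, and so was under both control values in Hashtag1 only. The Mll3/4-labelled library held 24 neutrophil-like, 10 granulocyte progenitor-like and 5 monocyte/macrophage progenitor-like cells, where control held 1782, 491 and 197. In its few neutrophil-like cells Fcer1g was at 986 CPM and Fcgr3 at 91.2 CPM, beside 1114 and 93.4 CPM in those of control. Fcgr2b was at 23.8 beside 55.2 CPM in the same cells, on 12 counts. Its 10 granulocyte progenitor-like cells had Fcgr3 at 85.3 beside 190.8 CPM, on 29 counts, and Fcer1g at 327 beside 186 CPM.

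Within the myeloid and stem cell classes, Fcer1g differed from control in the Mll4-labelled library. Monocyte/macrophage progenitor-like cells had 186 CPM there, beside 506 in control and 614 among Mll3-labelled cells. Neutrophil-like cells had 625 CPM, beside 1114 and 1084 in the same order. Granulocyte progenitor-like cells had 114 CPM, beside 186 and 210, and HSC/MPP-like cells 19.6 CPM, beside 52.7 and 54.2. In each of these 4 classes the Mll4-labelled value was the lowest of the 3, with an interval that did not meet those of the others.

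The log2 ratios of Fcer1g to control in the Mll4-labelled library were −1.45 (−1.58 to −1.32) in monocyte/macrophage progenitor-like, −1.43 (−2.07 to −0.84) in HSC/MPP-like, −1.23 (−1.94 to −0.60) in megakaryocyte-like and −0.83 (−0.87 to −0.80) in neutrophil-like cells. They were −0.70 (−0.90 to −0.51) in granulocyte progenitor-like cells, −0.85 (−1.27 to −0.45) in cluster 10 and −0.92 (−1.37 to −0.50) in cluster 14. The interval lay below 0 in 7 of 10 classes, above 0 in 1 and across 0 in the B-cell progenitor-like and T/NK/innate lymphoid-like classes. In cluster 14 the ratio was −0.06 with every cell thinned to 2000 UMIs. Members tested and at least 2-fold lower in the Mll4-labelled library numbered 1 of 3, Fcer1g in each case, in HSC/MPP-like (5.97% of all genes), monocyte/macrophage progenitor-like (2.52%) and megakaryocyte-like cells (4.61%). A gene was tested where it had at least 20 counts in 1 of the 2 libraries.

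The class that went the other way was erythroid progenitor-like cells, with Fcer1g at 7.75, 6.60 and 12.5 CPM in the control, Mll3- and Mll4-labelled libraries. The log2 ratio in the last was 0.69 (0.35 to 1.02). Without doublet removal that ratio was 0.13. The rise was not shared by all clusters of the class. For cluster 5 the Mll4-labelled value was 35.8 CPM, close to the control value of 34.1 (47 and 368 counts). Cluster 3 was higher, with 8.10 against 2.65 CPM (38 and 120 counts). Cluster 16 was lower, with 2.15 against 4.06 CPM, on only 2 Mll4-labelled counts. Cluster 5 held 247 of 553 Mll4-labelled and 619 of 1672 control cells of the class. The summed level of 8 neutrophil markers in the same erythroid cells was 646, 557 and 3378 CPM, and its part in the result was not tested. In HSC/MPP-like cells those markers were also higher in the Mll4-labelled library, at 3818 CPM beside 1522 in control, while Fcer1g was lower. The median depth of a class was lower there as well, for example 5833 beside 20946 UMIs per cell in monocyte/macrophage progenitor-like cells. With every cell thinned to 2000 UMIs, and under every other alternative run, the ratio of Fcer1g in that class lay between −1.70 and −1.13.

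Cluster makeup differed too. Neutrophil-like cells of control fell mainly in cluster 1 (70.8%) and those of the Mll4-labelled library in cluster 2 (71.1%), and cluster 9 held 16.1% and 27.4% of them. Within cluster 9 the Fcer1g ratio was −0.62. Cluster 12 held 99.0% of the monocyte/macrophage progenitor-like cells of control and 87.9% of the Mll4-labelled ones, and within it the ratio was −1.70. Cluster 15 held 41.8% of the granulocyte progenitor-like cells of control and 74.1% of the Mll4-labelled ones, and cluster 17 the rest. Mll4-labelled Fcer1g was at 131 beside 231 CPM in control in cluster 15. In cluster 17 it was at 39.9 beside 141 CPM, on 16 and 777 counts. Tyrobp, the adaptor nearest to Fcer1g in pattern, was at 420 CPM beside 681 in control in the monocyte/macrophage progenitor-like class (log2 ratio −0.70) and at 859 beside 1101 CPM in neutrophil-like cells (−0.36). In HSC/MPP-like cells it was at 48.6 beside 81.0 CPM (−0.73) and in granulocyte progenitor-like cells at 301 beside 385 CPM (−0.35). Its ratios lay in the direction of those of Fcer1g and were smaller in all 4 classes.

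Fcgr3 itself differed less. In granulocyte progenitor-like cells it was at 190.8, 149 and 139 CPM in the control, Mll3- and Mll4-labelled libraries. The log2 ratios were −0.35 (−0.44 to −0.26) and −0.45 (−0.64 to −0.28). In monocyte/macrophage progenitor-like cells it was at 154, 128 and 142 CPM, and in neutrophil-like cells at 93.4, 78.4 and 80.4 CPM. Control was the highest of the 3 in each of these classes. The Mll4-labelled ratio was −0.22 (−0.32 to −0.11) in neutrophil-like cells but −0.03 within cluster 9, and −0.12 (−0.29 to 0.05) in the monocyte class. In granulocyte progenitor-like cells it lay between −0.73 and −0.14 over the alternatives, while the median gene in that class was at 0.27 on the same scale. By cluster of that class, Mll4-labelled Fcgr3 was at 126 beside 165 CPM in control in cluster 15. In cluster 17 it was at 197 beside 216 CPM. Cluster 14 differed from the rest in the Mll3-labelled library, at 12.4 beside 6.85 CPM in control (0.86, 0.30 to 1.43). Of the tested members, 0 were at least 2-fold lower in granulocyte progenitor-like cells of the Mll4-labelled library, against 3.93% of all genes. In its neutrophil-like cells 0 were 2-fold apart in either direction, against 9.23% of all genes.

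Fcgr2b in granulocyte progenitor-like cells was at 47.6, 43.0 and 43.9 CPM, and in monocyte/macrophage progenitor-like cells at 35.8, 33.9 and 44.6 CPM. In neutrophil-like cells it was at 55.2, 46.0 and 44.5 CPM, with ratios of −0.26 and −0.31 (−0.45 to −0.17) to control. The inhibitory receptor was thus lower in both labelled libraries by more than counting error in the neutrophil-like class, and by less in the granulocyte progenitor-like one (−0.15 and −0.12).

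Fcgr4 in neutrophil-like cells was at 17.2, 9.24 and 20.3 CPM in the control, Mll3- and Mll4-labelled libraries. The log2 ratio in the Mll3-labelled library was −0.90 (−1.19 to −0.61), and −0.80, −1.11 and −1.11 within clusters 1, 9 and 20. Thinned to 2000 UMIs per cell it was −0.45. In the Mll4-labelled library the ratio was 0.23 (0.01 to 0.45) over the class and 0.58 within cluster 9. Of the 4 genes tested in Mll3-labelled neutrophil-like cells, Fcgr4 had the ratio furthest from 0. In that comparison 2.35% of all genes were at least 2-fold apart in either direction, and 0 of the 4 were. In granulocyte progenitor-like cells 1 of 4 tested members was at least 2-fold lower in the Mll3-labelled library, against 1.32% of all genes. This was again Fcgr4, on 15 counts beside 29 (−1.13, −2.13 to −0.18), and thinning gave 1.42.

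**Figure D2:**
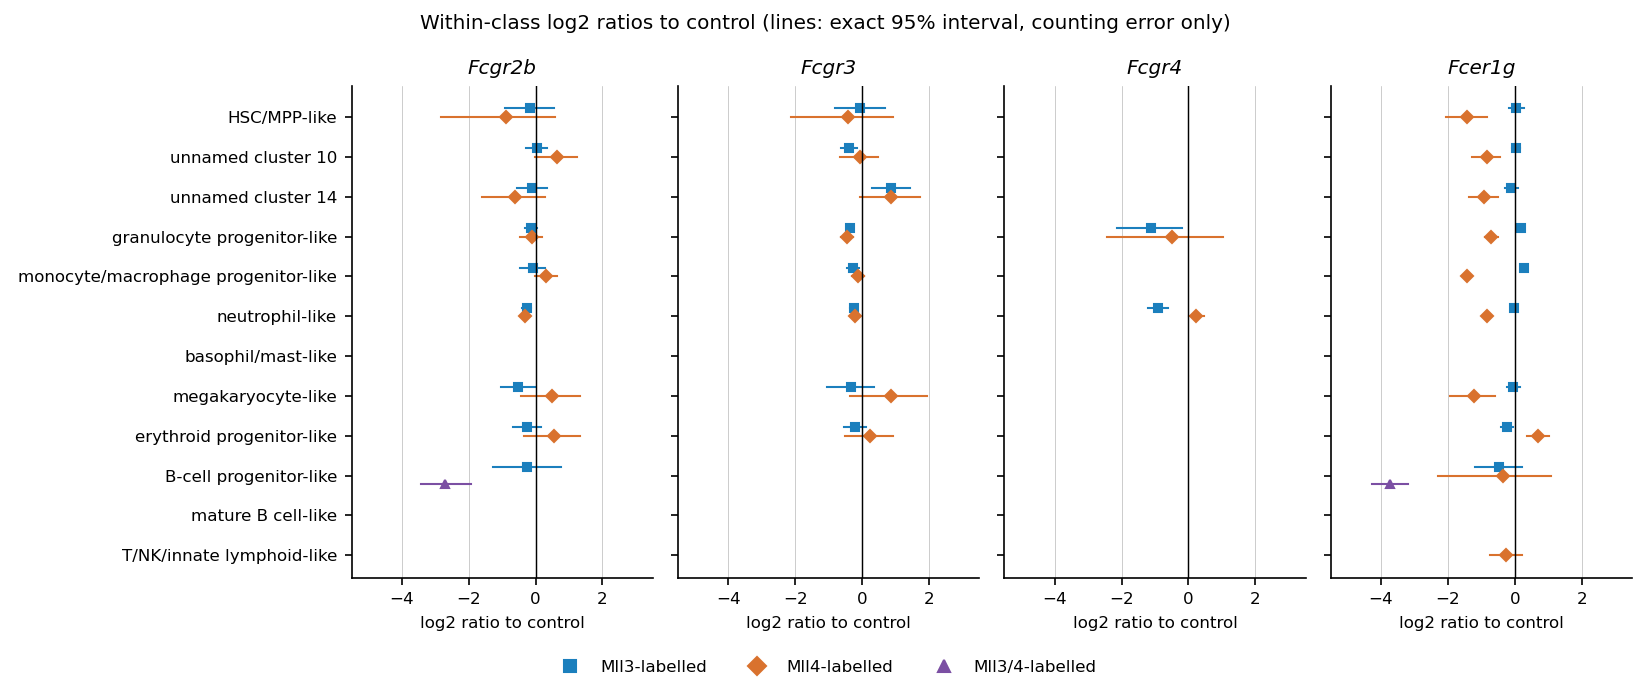
Log2 ratios to control of the 4 genes with enough counts (columns) in each class (rows), 1 symbol per labelled library, with lines for the exact 95% interval, which covers counting error only. Fcer1g in the Mll4-labelled library lies left of 0 from HSC/MPP-like to megakaryocyte-like cells and right of 0 in erythroid progenitor-like cells, while most Fcgr2b and Fcgr3 symbols are within 1 log2 unit of 0.

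Each library carried 2 hashtags whose meaning the labels do not give, and the values above were also taken within each. In the Mll4-labelled library Fcer1g was at 167 and 213 CPM in the monocyte/macrophage progenitor-like cells of Hashtag1 and Hashtag2, beside 495 and 517 in control. In neutrophil-like cells it was at 651 and 607 CPM, beside 1113 and 1114. Fcgr4 in neutrophil-like cells of the Mll3-labelled library was at 5.17 (3.41 to 7.52) and 11.6 (9.45 to 14.1) CPM, beside 19.2 and 15 in control, so that the hashtags of this library differed from each other while both were under those of control.

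At the protein level, a cell was called CD16/32-positive above 58.6 antibody counts, the crossing point of 2 components fitted in control at 10.6 and 159.5 counts. In control 98.4% of neutrophil-like, 87.6% of granulocyte progenitor-like and 86.8% of monocyte/macrophage progenitor-like cells were positive. The 28 basophil/mast-like cells of control were 82.1% positive (63.1 to 93.9). Among the other classes of at least 50 cells, cluster 10 followed with 19.1%, cluster 14 with 10.6% and HSC/MPP-like cells with 5.51%. Megakaryocyte-like cells had 4.40% and erythroid progenitor-like cells 3.53%. B-cell progenitor-like cells, at 0.425%, were the lowest of the larger classes, with a median of 6 antibody counts beside 231 in monocyte/macrophage progenitor-like cells. Over the 33 points the positive share had a Pearson correlation of 0.86 with Fcgr3, 0.75 with Fcer1g, 0.73 with Fcgr4, 0.69 with Fcgr2b and 0.27 with Fcgr1, all on log2(CPM + 1) and without a test.

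**Figure D3:**
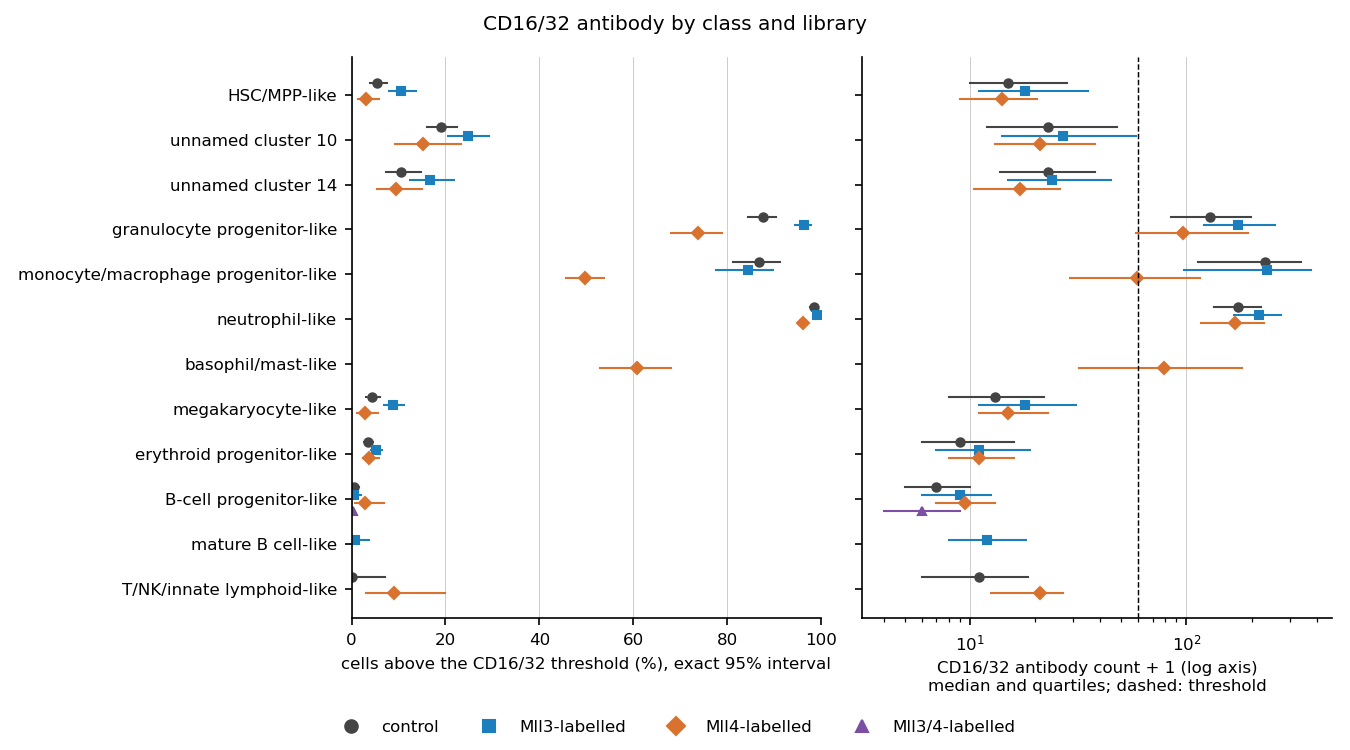
Left, percent of cells above the CD16/32 threshold with the exact 95% binomial interval, and right, median antibody count plus 1 (log axis) with quartiles and the threshold as a dashed line, by class and library. In control and in Mll3-labelled cells the granulocyte, monocyte/macrophage and neutrophil classes lie right of the dashed line, and the Mll4-labelled monocyte/macrophage class lies at it.

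Over all cells the positive share was 37.3%, 34.9%, 61.2% and 0.998% in the control, Mll3-, Mll4- and Mll3/4-labelled libraries. Of the 69 positive cells in the last, 25 were B-cell progenitor-like, 24 neutrophil-like and 10 granulocyte progenitor-like. These 69 cells had 86.6 CPM of Fcgr3 and 559 CPM of Fcer1g, beside 0.170 and 1.85 CPM in the other 6848 cells. The order of the libraries is thus that of their neutrophil-like share.

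Within 3 myeloid classes the Mll4-labelled library had a lower share of positive cells. In monocyte/macrophage progenitor-like cells 49.7% (45.7 to 53.8) were positive, beside 86.8% (81.3 to 91.2) of those in control and 84.4% of Mll3-labelled ones, and the median antibody count was 58, beside 231 and 235. The log2 ratio of shares to control was −0.80 (−0.94 to −0.66), between −0.86 and −0.44 over the alternatives and −0.66 in cluster 12 alone. In granulocyte progenitor-like cells the shares were 87.6% (84.3 to 90.4), 96.4% (94.4 to 97.8) and 73.7% (67.9 to 79.0), with medians of 127, 173 and 95 counts. With a threshold fitted in each library, the Mll4-labelled ratio in this class was −0.07 in place of −0.25. Neutrophil-like cells were 98.4%, 99.1% and 96.2% positive. With each cell's counts scaled to its total of surface antibody counts, the Mll4-labelled ratio in the monocyte/macrophage class was −0.86.

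The lower protein share in the Mll4-labelled monocyte/macrophage class came with similar receptor transcripts (Fcgr3 142 beside 154 CPM, Fcgr2b 44.6 beside 35.8 CPM) and a lower level of Fcer1g (186 beside 506 CPM). The same class also had other marker levels: the summed 8 neutrophil markers were at 4918 beside 1006 CPM, and the 7 monocyte markers at 1795 beside 1458 CPM. Ms4a2, the beta chain of the IgE receptor of mast cells and basophils, was at 34.1 beside 0.72 CPM (119 and 3 counts). The part of these markers in the result was not tested. By hashtag the positive share in that class was 57.3% and 41.6%, beside 88.0% and 86.0% in control.

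In the Mll3-labelled library the share of positive cells was higher in several early classes. HSC/MPP-like cells were 10.6% positive beside 5.51% in control (log2 ratio 0.95, 0.36 to 1.53), megakaryocyte-like cells 8.79% beside 4.40% (1.0, 0.43 to 1.57) and erythroid progenitor-like cells 5.28% beside 3.53% (0.58). Cluster 10 was at 24.7% beside 19.1% (0.37) and cluster 14 at 16.7% beside 10.6% (0.66). Fcgr3 was not higher in the first 3 of these classes, at 5.08 beside 5.24, 2.13 beside 2.70 and 2.11 beside 2.42 CPM. In cluster 14 it was, at 12.4 beside 6.85 CPM. Medians of several other antibodies were also higher in these classes, for example 297 beside 239 for CD117, 127 beside 88.5 for Sca1 and 7 beside 4 for B220 in HSC/MPP-like cells, while CD48 was at 195 beside 416. In erythroid progenitor-like cells CD117 was at 231 beside 187 and Gr1 at 27 beside 22. The summed 8 neutrophil markers in HSC/MPP-like cells were at 1287 beside 1522 CPM. The part of these values in the result was not tested. Median CD16/32 counts in HSC/MPP-like cells were 17 beside 14, under the threshold in both libraries. Over the alternatives the HSC/MPP-like ratio lay between 0.59 and 1.14.

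Positive and negative cells of the same class were then compared for their transcripts. The antibody did not choose the classes. For these pairs, the part of free RNA and of doublets left in the classes was not tested. In cluster 10 of control, 118 positive cells had 103 CPM of Fcgr3 and 499 negative cells 20.1 CPM, a log2 ratio of 2.36. The same cluster in the Mll3-labelled library had 73.5 and 11.5 CPM (2.67). Fcgr2b in cluster 10 of control was at 42.3 and 14.2 CPM (1.57), but Fcer1g at 142 and 114 CPM, a ratio of only 0.31 (0.13 to 0.49). In this cluster the receptor transcripts thus followed the protein more than the signalling chain did. Positive cells had a median of 20151.5 UMIs and negative cells 16018.

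Granulocyte progenitor-like cells of control showed the reverse. Fcgr3 was at 190.3 CPM in positive and 195 CPM in negative cells (−0.03, −0.23 to 0.17) and Fcgr2b at 48.3 and 42.5 CPM (0.18, −0.23 to 0.62), both with intervals across 0. Fcer1g was at 199.7 and 76.1 CPM, a ratio of 1.39 (1.09 to 1.70). Median depths were close, at 22089.5 and 20791 UMIs. Of the 491 cells, 430 were positive. The class held 2 clusters that differed in control. Cluster 15 was 93.2% positive with Fcgr3 at 165 and Fcer1g at 231 CPM. Cluster 17 was 83.6% positive with Fcgr3 at 216 and Fcer1g at 141 CPM. The part of this makeup in the contrast was not tested. In the Mll4-labelled library the same class had Fcer1g at 139 and 46.9 CPM (1.57) and Fcgr3 at 154 and 101 CPM (0.61, 0.19 to 1.05). Its monocyte/macrophage progenitor-like cells had Fcer1g at 223 and 142 CPM (0.65), Fcgr3 at 177 and 101 CPM (0.80, 0.53 to 1.08) and Fcgr2b at 52.2 and 35.8 CPM (0.54). In the Mll4-labelled library both the receptors and the chain were thus higher in positive cells of the monocyte class. Erythroid progenitor-like cells of control that were positive had 34.6 CPM of Fcgr3 and 72.6 CPM of Fcer1g, beside 1.57 and 6.04 CPM in the rest.

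**Figure D4:**
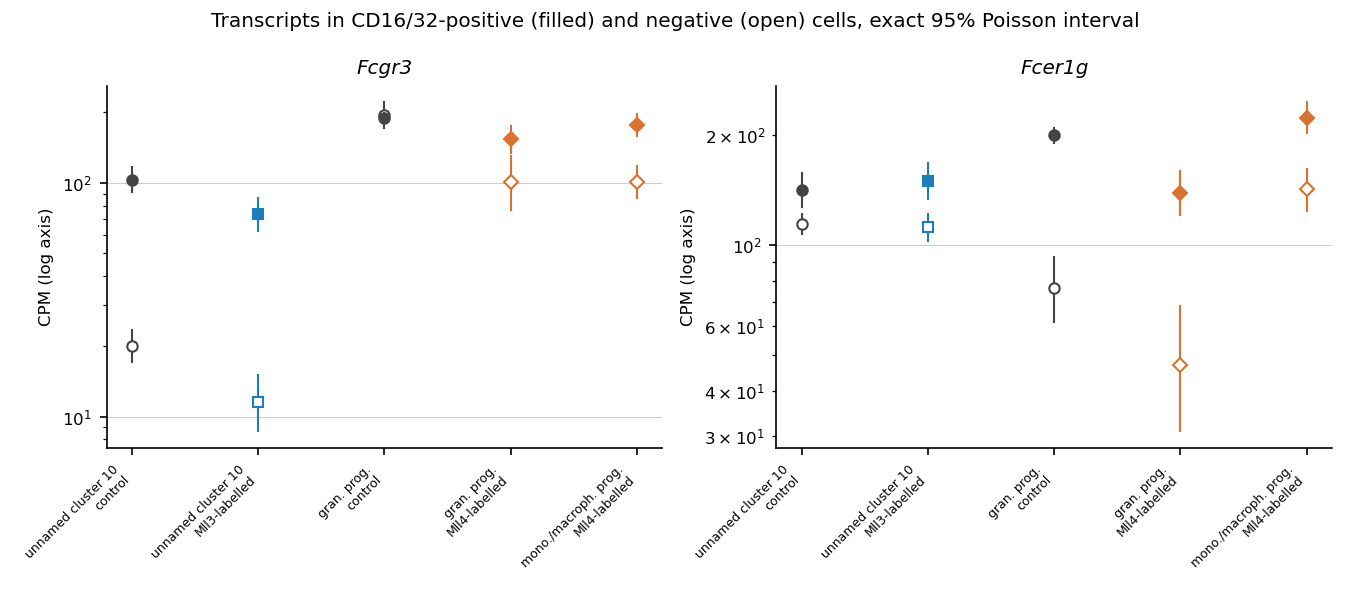
CPM (log axes) of Fcgr3 and Fcer1g in CD16/32-positive (filled) and negative (open) cells of 5 class-and-library pairs, with exact 95% Poisson intervals. Filled and open symbols are far apart for Fcgr3 in cluster 10 and on top of each other in control granulocyte progenitor-like cells, where those for Fcer1g are apart.

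The sort gates in which this antibody is used were rebuilt among CD117-positive, Sca1-negative cells, of which there were 3372, 3048, 2039 and 2906. All cut-offs were those fitted in control, and no cells were left out by lineage antibodies. The CD117 cut-off was 124 counts in control, and fits in the Mll3-, Mll4- and Mll3/4-labelled libraries gave 148, 143 and 226. The CD34+ CD16/32+ gate, that of granulocyte-macrophage progenitors, held 12.8%, 14.7%, 16.9% and 0.138% of them in the control, Mll3-, Mll4- and Mll3/4-labelled libraries. The CD34+ CD16/32- gate, that of common myeloid progenitors, held 20.4%, 18.4%, 28.9% and 0.0344%. The CD34- CD16/32- gate, that of megakaryocyte-erythroid progenitors, held 55.9%, 53.6%, 31.6% and 99.3%. In the Mll3/4-labelled library, where B-cell progenitor-like cells were 98.7% of all, this last gate does not mark erythroid cells. The remaining CD34- CD16/32+ gate held 10.9%, 13.4%, 22.6% and 0.551% in the same order of libraries.

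What filled a gate also differed. Of 430 cells in the CD34+ CD16/32+ gate of control, 182 were granulocyte progenitor-like, 124 monocyte/macrophage progenitor-like and 84 in cluster 10. Of 345 in the Mll4-labelled library, 161 were monocyte/macrophage progenitor-like, 83 granulocyte progenitor-like and 51 basophil/mast-like. Fcgr3 was at 145, 109 and 145 CPM in this gate in the control, Mll3- and Mll4-labelled libraries and Fcer1g at 275, 255 and 209 CPM. In the CD34+ CD16/32- gate Fcgr3 was at 18.5, 10.9 and 45.6 CPM, so the Mll4-labelled cells outside the antibody gate held more of the transcript.

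In B-cell progenitor-like cells the balance between the inhibitory and the activating receptor was examined by the share of Fcgr2b among the summed counts of Fcgr2b and Fcgr3. These are 3' UMI counts not divided by length, and the share is read across cells and not as a molar ratio. In control it was 19.97% (18.4 to 21.6) in granulocyte progenitor-like, 18.8% in monocyte/macrophage progenitor-like and 37.1% in neutrophil-like cells. It was 37.8% in erythroid progenitor-like cells and 34.5% in cluster 10, and 52.3% in HSC/MPP-like cells. It was 66.9% (57.9 to 75.1) in megakaryocyte-like cells, 67.6% (59.2 to 75.3) in cluster 14 and 52.5% (36.1 to 68.5) in B-cell progenitor-like cells. The 144 mature B cell-like cells of the Mll3-labelled library were at 87.5% (67.6 to 97.3), on 21 counts of Fcgr2b and 3 of Fcgr3.

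The 6830 B-cell progenitor-like cells of the Mll3/4-labelled library had a share of 81.9% (72.6 to 89.1), from 77 counts of Fcgr2b and 17 of Fcgr3. Outside them the same library had 26 and 108 counts, or 19.4% (13.1 to 27.1). In control the B-cell progenitor-like share came from 21 and 19 counts. The interval of the Mll3/4-labelled class thus lay above that of control.

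**Figure D5:**
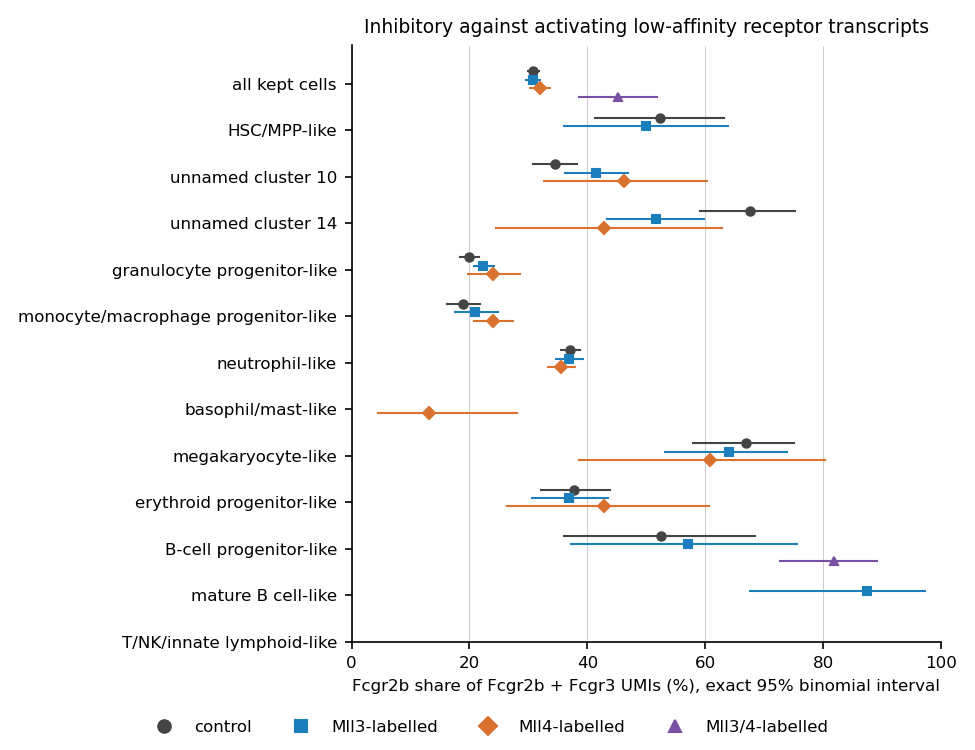
Share of Fcgr2b among Fcgr2b and Fcgr3 UMIs (percent) by class and library with the exact 95% binomial interval. Control granulocyte and monocyte/macrophage progenitor-like cells lie at 19.97% and 18.8%, and the Mll3/4-labelled B-cell progenitor-like and Mll3-labelled mature B cell-like cells lie above 80 on this axis.

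All of these transcripts were lower in the Mll3/4-labelled B-cell progenitor-like cells than in those of control. Fcgr2b was at 1.01 CPM beside 6.60 (log2 ratio −2.70, −3.41 to −1.93), Fcgr3 at 0.224 beside 5.97 CPM (−4.74, −5.77 to −3.71, on 17 and 19 counts) and Fcer1g at 1.08 beside 14.5 CPM (−3.74, −4.28 to −3.19). Fcgr3 did not reach 20 counts, and of the other 2 genes tested 2 were at least 2-fold lower, against 12.7% of all genes. For shares over all genes, 0 counts in 1 library were set to 3. Control had 3181914 gene UMIs in this class and the Mll3/4-labelled library 75883494. A gene with 0 control counts and few in the other library could thus be called lower, so 12.7% may be too high. On simulated counts for this comparison, 7.93% of unchanged genes were called 2-fold apart. Fcgr2b differed least of the 3. The summed 8 neutrophil markers were at 78.1 CPM in these cells and at 2433 CPM in the B-cell progenitor-like cells of control, and the 7 granulocyte progenitor markers at 37.0 and 793 CPM. Their part in the result was not tested. The class held different clusters in the 2 libraries: clusters 18 (67.1%) and 19 (32.7%) in control, and clusters 0, 6, 7, 8 and 22 in the Mll3/4-labelled library. Its antibody medians were 1031 and 26 for CD48, 193 and 13 for B220 and 55 and 256 for CD117, while CD16/32 was at 6 and 5 counts, with 0.425% and 0.366% of cells positive.

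The signalling genes downstream of these receptors were taken as lists. In Mll3/4-labelled B-cell progenitor-like cells, 13 of 15 genes of activating Fc receptor signalling had at least 20 counts, of which 11 were at least 2-fold lower and 0 higher, against 12.7% and 11.8% of all genes. They had a median log2 ratio of −1.59 beside 0.02 for all genes. These medians were taken on log2(CPM + 1), and ratios of single genes without a pseudocount. Btk, the Tec-family kinase, was at 4.06 beside 78.9 CPM (−4.28), Syk at 26.9 beside 113 CPM (−2.07) and Lyn at 21.2 beside 61.0 CPM (−1.52). The exceptions included Blnk, the B-cell linker, at 456 beside 429 CPM (0.09). Of 12 inhibitory receptors and phosphatases 9 were measured and 6 were at least 2-fold lower, with a median of −1.17, against the same 12.7% of all genes. Ptpn6, encoding the phosphatase SHP-1, was at 7.30 beside 49.3 CPM (−2.76), and Inpp5d, encoding SHIP1, which FcγRIIB recruits, at 62.1 beside 140 CPM (−1.18). Among related genes Fcrla was lower at 0.0922 beside 16.7 CPM (−7.50) and Fcrl1 higher at 20.2 beside 1.89 CPM (3.42). Of the adaptors, Cd79a was at 2998 beside 1802 CPM (0.73), whereas Tyrobp was at 1.08 beside 32.7 CPM (−4.92). Cd79a is also among the markers that named this class.

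In granulocyte progenitor-like cells of the Mll4-labelled library, 12 of 15 signalling genes were measured, 3 of them at least 2-fold higher and 0 lower, with a median of 0.45 beside 0.25 for all genes. In this comparison 1026 of 10231 genes were at least 2-fold higher. Lyn, the Src-family kinase, was at 97.7 beside 35.0 CPM (1.48), Prkcd at 104 beside 45.8 CPM (1.19) and Vav1 at 118 beside 54.4 CPM (1.11). Of 12 inhibitory genes 9 were measured and 1 was at least 2-fold lower, Cd72 at 1.43 beside 13.4 CPM (−3.22), against 3.93% of all genes lower. In monocyte/macrophage progenitor-like cells 13 of 15 signalling genes were measured, 4 at least 2-fold higher and 1 lower, with a median of 0.55, and of all 9506 genes 958 were at least 2-fold higher and 240 lower. Lyn (1.28) and Fyn (1.34) were among the higher ones, and Lat2, an adaptor of mast and B cells, was lower at 24.9 beside 71.3 CPM (−1.52). Of 11 inhibitory genes measured in that class 3 were at least 2-fold higher: Pirb (2.68), Lilrb4a (2.51) and Cd72 (1.71). In neutrophil-like cells 14 of 15 signalling genes were measured and 0 was 2-fold apart in either direction, with a median of 0.28, while Lilrb4a was at 152 beside 51.5 CPM (1.56).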

How the data were processed

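Per the submitters' processing notes, the authors processed the reads with Cell Ranger 6.1.2 and the build mm10, and the deposited matrices hold UMI counts with no normalization. The annotation release is not given in the sources used here. The genes and lists were chosen with earlier results of these data known.

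Barcodes with at least 500 genes, at least 1000 UMIs and at most 10% mitochondrial UMIs were kept. Scrublet scores (scanpy 1.11.5) removed 0.8% of cells per 1000 barcodes, or 622, 481, 299 and 491 cells. The 4 libraries were clustered together with Leiden (leidenalg 0.10.2) on 2000 variable genes, using 30 components, 15 neighbours and resolution 1. The members and listed genes were left out, except Cd79a and Cd79b, which are also B-cell progenitor markers. Clusters were named from fixed markers. A total of 90 marker genes and 44 list genes were used. Counts were summed per class and library and scaled to CPM. Intervals at 95% are exact Poisson for CPM, exact binomial for shares and exact conditional binomial for count ratios, while those for ratios of shares use the log scale (scipy 1.17.1, numpy 2.4.6, pandas 2.3.3). Ratios between libraries were taken in classes with at least 50 cells in both, and genes with at least 20 counts in either library counted as tested. In shares over all genes and in counts of list genes, 0 counts were set to 3. Values on fewer cells or counts are given with those numbers.

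The genes named are the 5 members, at most 6 genes of each list per comparison by level or ratio, and the 5 genes most like each member. Some genes that this rule selects are not reported here. Alternatives included TMM scaling (edgeR 4.0.16), size factors (DESeq2 1.42.0) as scaling only, no doublet removal, cells with exactly 1 hashtag, a stricter filter of 1000 genes, 2000 UMIs and 5% mitochondrial UMIs, thinning to 2000 UMIs, a pseudocount of 1 CPM, other clustering settings and other antibody thresholds. The scripts were tested on simulated counts with known fold changes. No count model was fitted. Promoter sequences are from RefSeq, and all 5 genes were found there.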

Additional observations from a re-analysis of the deposited data

Results flagged for a closer look

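A gene whose ratio to control lay above 0 in 1 class and below 0 in another class of the same library, with both intervals clear of 0, was looked at again. Fcgr3 in the Mll3-labelled library had a log2 ratio of 0.86 in cluster 14 and −0.39 in cluster 10. Fcer1g in the Mll3-labelled library was at 0.28 in monocyte/macrophage progenitor-like and −0.23 in erythroid progenitor-like cells. Within the erythroid clusters its levels were closer, at 33.2 beside 34.1 CPM in control in cluster 5. They were 2.44 beside 2.65 CPM in cluster 3 and 4.93 beside 4.06 CPM in cluster 16. Cluster 5 held 494 of 1628 Mll3-labelled and 619 of 1672 control cells of the class. Fcer1g in the Mll4-labelled library was at 0.69 in erythroid progenitor-like and −1.45 in monocyte/macrophage progenitor-like cells. The difference between the classes was not tested in any of these, since each group has 1 library.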

How the results depend on the processing

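No paired analysis was possible because each group has 1 library and no replicate numbers. Of 157 alternative values for the 19 main results, 132 stayed within the counting interval, 24 moved and 1 changed sign. Of 756 for the 137 other results, 657 stayed, 93 moved and 6 changed sign. A change of sign was counted only where the main interval was clear of 0. Other sign changes are among the values that stayed or moved. List medians have no counting interval and were judged by fixed limits. The causes of these shifts were not tested. The ratio of CD16/32-positive shares in the Mll3/4-labelled library, −5.22, was 0.44 with a threshold fitted in each library, since the threshold there was 4.21 counts, and −3.95 with counts scaled to the surface antibody total. Signs also changed for Fcer1g in Mll3-labelled erythroid progenitor-like cells (0.0039 at resolution 2, 0.18 thinned) and neutrophil-like cells (0.0033 thinned, 0.0024 in cluster 20), and, thinned, for Fcgr4 in Mll3-labelled granulocyte progenitor-like cells (1.42) and Fcgr3 in cluster 10 (0.020). With a pseudocount of 1 CPM, the Mll3/4-labelled ratios were −1.92 for Fcgr2b and −2.51 for Fcgr3 in B-cell progenitor-like cells and −3.88 for Fcgr3 over all cells, where the mean over cells gave −5.72 and thinning −5.54. Fcgr3 over all cells was −0.34 by DESeq2 size factors and −0.30 thinned in the Mll3-labelled library, and 0.52 by the mean over cells and 0.63 thinned in the Mll4-labelled one. In granulocyte progenitor-like cells Fcgr3 was −0.20 without doublet removal in the Mll3-labelled library, and −0.14 with 1 hashtag only, −0.72 by TMM, −0.73 by DESeq2 size factors and −0.20 thinned in the Mll4-labelled one. The positive share in that class was 0.29 without doublet removal, 0.21 with the stricter filter, 0.22 with seed 1 and 0.059 scaled in the Mll3-labelled library, and −0.42 with 1 hashtag only, −0.39 with the stricter filter and −0.071 with a threshold per library in the Mll4-labelled one. Over all cells of the Mll4-labelled library the share ratio was 0.79 with a threshold per library and 0.63 scaled. Depth limits Fcgr1 in every class and Fcgr4 outside neutrophil-like cells, where most classes hold few or no counts.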

Other observations

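Over all cells, the hashtags of the Mll3-labelled library differed: CD16/32-positive cells made up 30.2% of Hashtag1 and 40.4% of Hashtag2 cells, and Fcer1g was at 127 and 220 CPM and Fcgr4 at 0.486 and 2.06 CPM. In control the positive shares were 38.0% and 36.4%, and in the Mll4-labelled library 56.4% and 63.9%. Basophil/mast-like cells of control (28 cells) and of the Mll3-labelled library (17 cells) were 82.1% and 100% CD16/32-positive. The 173 basophil/mast-like cells of the Mll4-labelled library were 60.7% CD16/32-positive, with Fcgr3 at 102 CPM in positive and 30.1 CPM in negative cells (log2 ratio 1.75). Of the 35 dendritic cell-like cells there, 45.7% were positive.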
